A study of Mus musculus with 30 samples.

Results

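The 9 libraries described here came from mouse lymphoma lines made resistant to paclitaxel, and they were compared with 11 libraries from lines carried in DMSO, the solvent of the drug. They were chosen under a hypothesis about the deposited titles. In this reading, which was drawn from measured fold changes, every library from the one titled DMSO 12 on takes the title that follows its own, and the 9 were chosen by those fold changes. Under that shift the study's Paclitaxel Resistance Group 1 (lines B2, C1, C3, F10, H1, H3, H4, H8 and H9) is the libraries titled Pac A6, Pac B2, Pac C1, Pac E2, Pac G9, Pac H1, Pac H3, Pac H4 and Pac H8. The shift remains a hypothesis, and libraries are named below by their deposited titles. All 9 carry a paclitaxel title, and 6 of them (Pac B2, C1, H1, H3, H4 and H8) belong to Group 1 with the shift and without it. Their label as Group 1 does not rest on the shift, but the choice of these 6 and of the controls does. Pac C3, Pac F10 and Pac H9 are Group 1 by their own titles and were left out under the shift, as was DMSO 12. Under the deposited titles, 59 genes had an adjusted p under 0.01 by edgeR, where the 6 gave 192. Pac A6, Pac E2 and Pac G9 are Group 1 under the shift only. Since measured values chose the 9, their contrast with DMSO is given as a description, and adjusted p-values are printed for the 6. The 6 were taken out of the 9, so these p-values are not independent of the values behind the shift.

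The series holds 30 libraries, 1 per line. Every line was derived from 1 parental Eµ-Myc; p19ARF -/- culture, in which Myc is driven by the immunoglobulin heavy chain enhancer and the Arf tumor suppressor is missing, so that controls and resistant lines share both alleles. Each line grew from 10000 cells in its own well of a 96-well plate, through repeated rounds of paclitaxel at a dose set to kill 85% of the cells, or of DMSO, during 12 to 18 weeks, with recovery without drug in between. The p-values therefore measure the spread between such lines of 1 culture, and in these bulk libraries fewer cells that express a gene and less RNA per cell cannot be told apart. A further 7 paclitaxel libraries (Pac C3, C11, D4, D7, D10, E1 and F10) are paclitaxel lines under either labelling. The libraries titled DMSO 12, Pac H9 and Parental change treatment with the shift and entered none of the comparisons of the 9, the 6 or the 7.

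Paclitaxel binds β-tubulin, stabilizes microtubules and arrests cells in mitosis. Tumor cells can survive it by pumping the drug out through ABC transporters such as P-glycoprotein, by altering tubulin isotypes or by raising the threshold for apoptosis. Interferon, a cytokine of the antiviral response, induces genes such as Ifit1 and Ifit3, many of which carry a short response element upstream of their start.

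Sequencing depth, as the sum of counts, was 480919 to 6682169 (median 2640319) in the 9 libraries and from 1053948 to 6739131 (median 4235788) in DMSO 1 to 11. Pac C1 was the shallowest, with 9852 genes detected, and it stood apart on the first principal component, at 119.5 where the other 19 libraries lay between -53.3 and 13.4. Pac A6 and Pac G9 were nearer to DMSO 11, in which mitochondrial genes took 12.4% of counts, than to any other library. B cell markers were present throughout (8 of 8 markers, summed 1811 to 3871 CPM, counts scaled to 1e6 per library, in the 9 libraries against 2708 to 4939 in DMSO). Some markers of T cells (Cd3e, Cd4), macrophages (Adgre1, Cd14), neutrophils (S100a8, S100a9, Elane) and fibroblasts (Col3a1) were at 0 in all 20. The summed T cell markers, 4 of 6 with counts, were 0 to 8.23 CPM in the 9 libraries against 0.576 to 6.86 in DMSO, and the summed macrophage markers, 3 of 5 with counts, were 1.74 to 45.6 CPM in the 9 libraries against 3.38 to 9.98 in DMSO. Cdkn2a, which encodes Arf, had 0 counts in all 20 libraries.

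Of 9333 genes tested, 147 were higher in the 9 libraries (1.58%) and 212 lower (2.27%) at an adjusted p under 0.01, or 3.85% in either direction, by edgeR's quasi-likelihood fit. In the 6, from a fit that also held the 3 as a separate group, 78 genes rose (0.836%) and 114 fell (1.22%), 2.06% in all, and with the 3 left out of the fit 276 were called. Of the 192 genes called in the fit that held the 3, 172 were also called in the 9. The 2 comparisons share the 6 libraries and all controls, so this overlap is no independent support. The expression of 42 genes (0.45%) was lower in every one of the 9 libraries than in every DMSO library, and of 14 genes (0.15%) higher. For the 6 these numbers were 78 (0.836%) and 40 (0.429%). The 3 libraries that join Group 1 under the shift only gave 0 calls against the 6 (0%) by the same edgeR test, with 1472 genes (15.8%) at an unadjusted p under 0.05, and 7 calls by DESeq2 and 11 by edgeR's likelihood ratio test. Just inside the threshold lay Psmc3ip, at a log2 fold change of 0.69, and Tmem161b, at -0.69, and just outside it lay Atp5g3, at -0.57, and Cnot8, at 0.48.

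A set of genes had almost no counts in any of the 9 libraries. Zfp979, a zinc finger gene (GRCm38 chromosome 4, 147611937 to 147642513), had between 20.6 and 44.8 CPM in the DMSO lines (median 33.3) and between 0 and 0.633 in the 9 (median 0), a total of 5 counts against 1436. The groups did not overlap. Its log2 fold change in the 6 was -7.35 ± 0.49 (SE, edgeR quasi-likelihood, adjusted p = 7.8e-10). Klhl22, an adaptor of the CUL3 ubiquitin ligase (chromosome 16, 17759618 to 17793382), had 26.1 to 45.4 CPM in DMSO (median 32.3) and 0 to 2.08 in the 9 libraries (median 0.456), and in the 6 it fell by 6.68 ± 0.46 on the log2 scale (SE, edgeR adjusted p = 9.8e-10). Maoa, monoamine oxidase A of the mitochondrial outer membrane (chromosome X, 16619698 to 16687818), had 32 to 73.4 CPM in DMSO (median 51.7) and 0 to 0.993 in the 9 (median 0), with 7 of the 9 libraries at 0 counts. In the 6 its log2 fold change was -7.61 ± 0.55 (SE, edgeR adjusted p = 2e-09).

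AW209491, an uncharacterized gene of chromosome 13, ranged from 17.9 to 32.9 CPM in DMSO and from 0 to 1.24 in the 9 libraries, and Acyp2, an acylphosphatase, from 9.81 to 56.6 against 0 to 0.745. Kantr, a gene of the X chromosome, had 6.90 to 16.2 CPM in DMSO and 0 to 1.40 in the 9. Lipo3, a lipase family gene on chromosome 19, had 2 counts in total in the 9 libraries against 774 in DMSO, a ratio of 265 per sequenced count (95% counting interval 73.2 to 2194). Zc2hc1a, a zinc finger gene, had 2 counts against 277, a ratio of 94.9 (26 to 788), and Crlf2, a subunit of the receptor for the cytokine TSLP, had 2 against 216, a ratio of 74.0 (20.2 to 615). These intervals cover counting error only. All of these genes were below every DMSO library in all 9 libraries.

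Adgre5, the adhesion receptor CD97, and Akr1e1, an aldo-keto reductase, followed the same pattern with 1 exception among the controls. Akr1e1 was at 0 CPM in DMSO 5 and at 11.0 to 41.2 in the other 10 DMSO libraries, and did not pass 2.08 in the 9. Adgre5 was at 1.12 CPM in DMSO 5 and at 21.6 to 59 in the others, against 0 to 2.08 in the 9. Mrps15, a protein of the small mitochondrial ribosomal subunit, was the 1 gene among the 12 with the smallest p that kept a substantial level, with 41.7 to 64.6 CPM in the 9 libraries against 80.5 to 122 in DMSO, and it fell in the 6 by 0.98 ± 0.13 (log2, SE, edgeR adjusted p = 7.5e-05). All 12 of these genes were called in the 6, where 1.22% of all genes were lower. They were picked by p in the 9, which hold the 6 and share their controls, so these calls were largely fixed by the choice. Leaving out any 1 of 17 libraries kept the call of 11 of them, and Crlf2 was called in the 12 such fits in which it passed the filter.

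**Figure D1:**
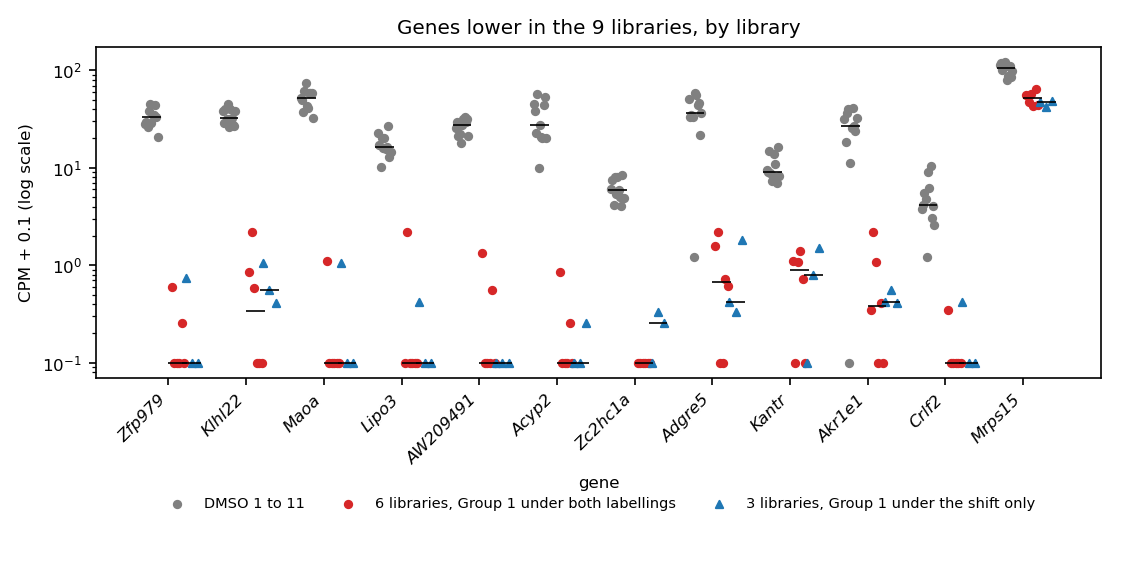
CPM plus 0.1 on a log axis for the 12 genes lower in the 9 libraries with the smallest p. Grey points are DMSO 1 to 11, red points the 6 libraries that are Group 1 under both labellings, blue triangles the 3 that are Group 1 under the shift only, and black lines medians. The 9 libraries lie near 0 for 11 of the genes, and Mrps15 lies at 41.7 to 64.6 CPM.

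The other 7 paclitaxel libraries shared some of these losses. Zfp979 was at 0 to 0.462 CPM in the 7, Maoa at 0 to 0.342, Lipo3 at 0 and AW209491 at 0 to 1.62, in each case below every DMSO library. Other genes divided the 7. Klhl22 was at 15.3, 36.4 and 37.9 CPM in Pac C3, Pac D7 and Pac E1 and at 0 to 0.963 in the other 4, and Akr1e1 was at 70.7, 40.3 and 90.3 CPM in the same 3 libraries and at 0 to 0.683 in the rest. Zc2hc1a, Kantr, Acyp2 and Mrps15 also had their highest values among the 7 in these 3 libraries, with Mrps15 at 133, 138 and 126 CPM there and at 35.7 to 60.6 in the other 4. Adgre5 was at 36.1 CPM in Pac D7 and at 0 to 5.11 in the rest. The log2 difference of the 9 from the 7 was -4.93 ± 0.84 for Klhl22 and -6.17 ± 1.12 for Akr1e1 (SE). Of the libraries set aside, the one titled DMSO 12 had 0 counts of Zfp979, Acyp2, Zc2hc1a and Adgre5, the one titled Parental had 51, 110, 8 and 39, and the one titled Pac H9 had 18, 4, 5 and 0.

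Genes of chromosome 19 were lower as a body. Of 355 tested genes on this chromosome, 90.4% had a negative log2 fold change in the 9 libraries, with a median of -0.55 where the median of all tested genes was 0.020. For each library, the median over the genes of a chromosome of log2 CPM minus the DMSO mean was taken. On chromosome 19 it lay between -0.64 and -0.40 in the 9 libraries (median -0.55) and between -0.048 and 0.15 in DMSO, without overlap. The mean of the 6 was lower than that of DMSO by 0.60, with a two-sided exact permutation test over 12376 splits giving p = 0.000081, the smallest value this design allows, and an adjusted p of 0.0016 over 20 chromosomes. Without Pac C1 the difference was -0.59.

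The decrease ran along the whole chromosome, with medians between -0.58 and -0.44 in each of its 7 windows of 10 Mb. Of the 212 genes called lower in the 9, 85 were on chromosome 19, most of them by a small amount, with 82 between -2 and 0 on the log2 scale and a median of -0.84, and 48 of the 114 that fell in the 6 were on it. Only 3 genes of the chromosome were called higher in the 9, Ifit1, Ifit2 and Ifit3. Without the genes of chromosome 19, 121 genes were called lower in the 9 and 55 in the 6.

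**Figure D2:**
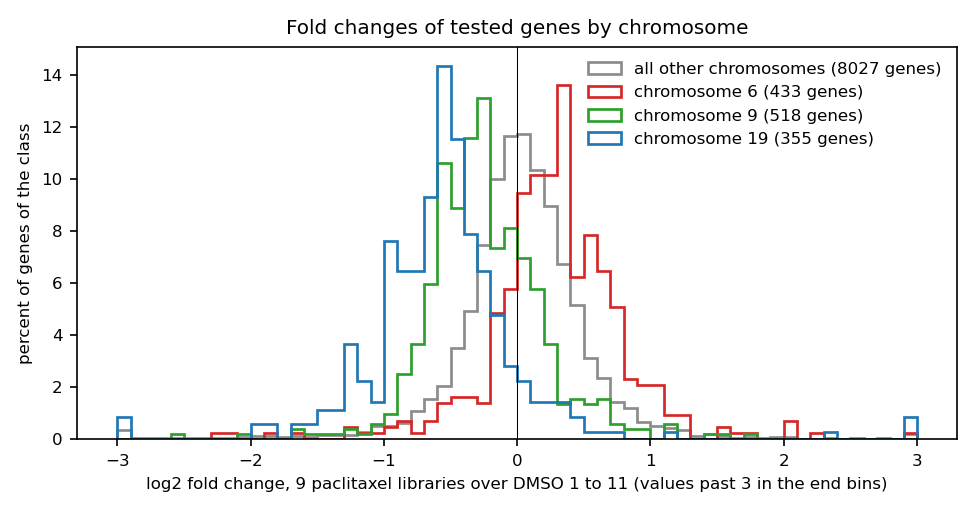
Distribution of the log2 fold change of the 9 libraries over DMSO 1 to 11, as percent of the genes of each class in bins of 0.1. Chromosome 19 (355 genes) is centered at a median of -0.55 and chromosome 9 (518 genes) at -0.27, chromosome 6 (433 genes) at 0.29, and the other chromosomes near 0.

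Several of the lower genes of chromosome 19 belonged to the lists described here. Gsto1, an omega-class glutathione transferase, had 63.8 to 146 CPM in the 9 libraries (median 82.3) and 169 to 317 in DMSO (median 218), without overlap, and fell in the 6 by 1.18 ± 0.17 (log2, SE, edgeR adjusted p = 0.00017). Bad, a pro-death member of the BCL2 family, had 13 to 34.8 CPM in the 9 (median 22.7) and 33.5 to 68.0 in DMSO (median 54.3), with 8 of the 9 libraries below every DMSO library, and fell in the 6 by 1.07 ± 0.19 (SE, edgeR adjusted p = 0.0013). Kif11, the kinesin that separates spindle poles, had 50.9 to 92.7 CPM in the 9 (median 66.1) and 79.8 to 202 in DMSO (median 110), and fell in the 6 by 0.98 ± 0.17 (SE, edgeR adjusted p = 0.00091). The groups overlapped for Kif11 only through Pac A6, at 92.7.

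Of 26 respiratory chain subunits tested, 5 were called lower in the 9 and 0 higher, where 2.27% of all genes were lower. Ndufb8, Ndufv1 and Ndufs8 of complex I lie on chromosome 19, and Cox5a and Cox7a2 of complex IV on chromosome 9. Of all genes tested on these chromosomes, 85 of 355 and 25 of 518 were called lower in the 9. The list held 3 tested members on each, and no subunit on another chromosome was called in the 9. Ndufb8 had 108 to 269 CPM in the 9 (median 217) and 284 to 512 in DMSO (median 403), and was the 1 subunit called in the 6, by -0.80 ± 0.15 (log2, SE, edgeR adjusted p = 0.002). The median log2 fold change of the list was -0.19 in the 9 and -0.11 in the 6. By library, the list's median was -0.99 in Pac G9 and -0.57 in Pac A6 and between -0.24 and -0.03 in the other 7, and among DMSO libraries it was -0.55 in DMSO 11, the one with 12.4% mitochondrial counts, and -0.21 to 0.28 in the rest. Mitochondrial genes took at most 4.35% of counts in each of the 9. Without Pac A6, Pac G9 and DMSO 11, 6 subunits were called lower, as were 295 of all 9306 genes, and the list's median was -0.12. Of fits that left out 1 of 20 libraries, the call of Ndufs8 was lost in 12 and that of Cox7a2 in 7, both of them without Pac A6, H1, H3 or H8. Nolc1, a nucleolar phosphoprotein of ribosome biogenesis also on chromosome 19, was lower in the 9 by 0.50 ± 0.12 (log2, SE) and was not called in the 6 (-0.38 ± 0.12, edgeR adjusted p = 0.069), and the other 24 ribosome biogenesis genes tested were not called in either by edgeR, while DESeq2 called 3 of the 25 lower in the 9, and 359 of all 9333 genes. The call of Nolc1 in the 9 was lost in 14 of 20 fits that left out 1 library, among them those without Pac A6, E2, G9, H1, H3 or H8.

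Other chromosomes differed among the 9 libraries themselves. On chromosome 6 the median was 0.53 in Pac A6, 0.44 in Pac C1, 0.44 in Pac G9, 0.51 in Pac H3 and 0.54 in Pac H8, and between -0.018 and 0.035 in the other 4, while DMSO libraries lay between -0.045 and 0.063. The difference of the 6 from DMSO was 0.25, with an exact permutation p of 0.011 and an adjusted p of 0.053. Of 433 genes tested on chromosome 6, 19 were called higher in the 9 and 4 lower, where 1.58% and 2.27% of all genes were. Chromosome 9 was low in all 9 libraries (-0.39 to -0.12), but DMSO libraries were spread from -0.24 to 0.39, with DMSO 1, 2, 5, 7 and 9 at -0.24 to -0.19 and DMSO 3, 4, 8, 10 and 11 at 0.22 to 0.39. The groups overlapped, and the difference of -0.31 had an adjusted p of 0.053 in the same exact permutation test. For chromosome 6 the adjusted p was 0.043 with a prior count of 0.5, 0.063 with RLE factors, 0.019 after thinning and 0.16 without Pac C1. For chromosome 9 it was 0.043, 0.063, 0.076 and 0.13 in the same order. A shift of -0.064 on chromosome 13 had an adjusted p of 0.039 in that test, 0.063 when RLE factors were used and 0.12 after thinning.

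Single libraries carried further shifts. Chromosome 5 was at 0.47 in Pac B2, 0.26 in Pac G9 and 0.20 in Pac H1, against -0.069 to 0.13 in DMSO. Pac E2 was at 0.29 on chromosome 1 and 0.40 on chromosome 12, and Pac G9 at -0.31 on chromosome 14. In the 7 other paclitaxel libraries chromosome 19 lay between -0.65 (Pac D10) and -0.12 (Pac D4) and chromosome 6 between -0.14 and 0.17. The libraries titled DMSO 12, Pac H9 and Parental were at -0.56, -0.27 and -0.080 on chromosome 19. DNA copy number was not measured in these files.

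**Figure D3:**
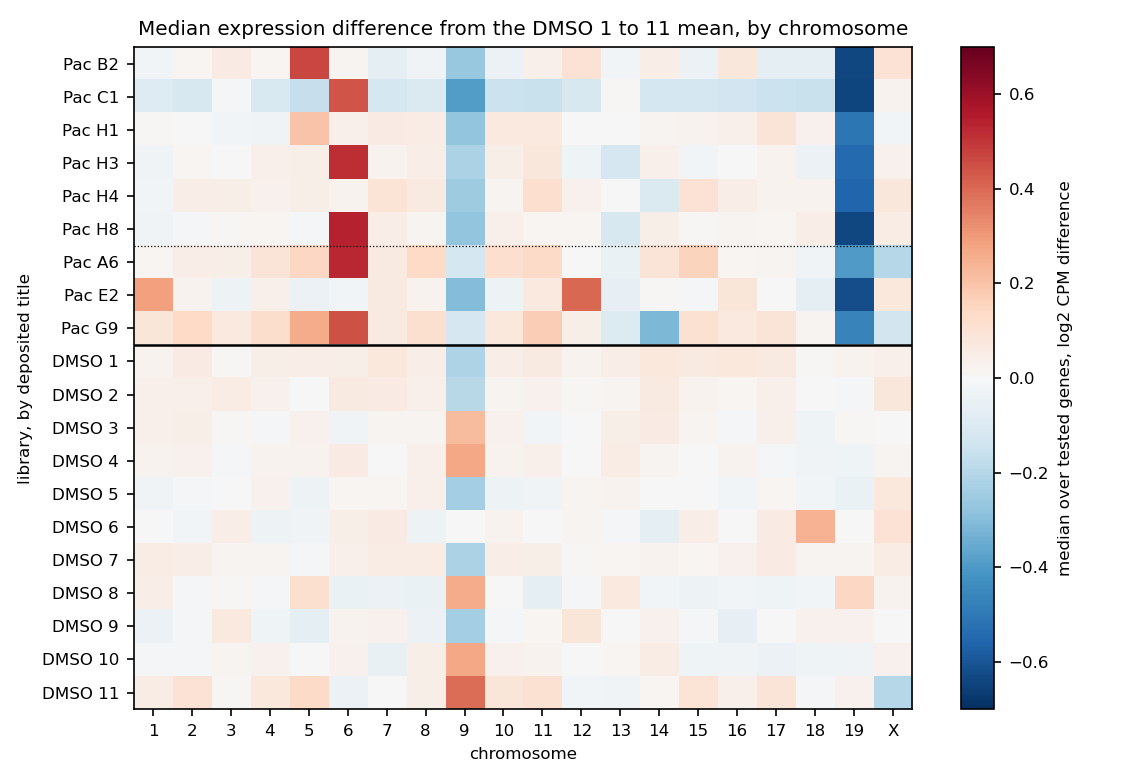
Median log2 CPM difference from the DMSO 1 to 11 mean over the tested genes of each chromosome (columns), by library (rows; above the dotted line the 6 libraries of Group 1 under both labellings, then the 3 under the shift only, and below the solid line DMSO). Chromosome 19 is blue in all 9 paclitaxel rows (-0.64 to -0.40), chromosome 6 is red in 5 of them (0.44 to 0.54), and chromosome 9 varies among the DMSO rows.

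Among ABC transporters, Abcb1b, 1 of the 2 mouse genes for P-glycoprotein, rose. It had 15.9 to 45.0 CPM in DMSO (median 31.2) and 41.4 to 252 in the 9 libraries (median 80.7), and 8 of the 9 were above every DMSO library, the exception being Pac A6 at 41.4. Pac G9 was the highest at 252, followed by Pac B2 at 117 and Pac E2 at 116. Its log2 fold change was 1.72 ± 0.26 (SE) in the 9 and 1.42 ± 0.26 in the 6 (edgeR adjusted p = 0.0018), in which the groups did not overlap. Abcb1b lies on chromosome 5 (8798147 to 8866315), and its level in the 4 libraries with chromosome 5 medians between -0.039 and 0.042 (Pac E2, H3, H4 and H8) was 71.3 to 116 CPM. It was 49.9 in Pac C1 (median -0.16) and 41.4 in Pac A6 (0.14). In Pac B2, G9 and H1 (0.47, 0.26 and 0.20) it was 117, 252 and 81.7. A link between the level and the median was not tested. The 7 other paclitaxel libraries had 60.1 to 109 CPM, and the log2 difference of the 9 from the 7 was 0.15. Abcb1a, the other gene for P-glycoprotein, had 0 counts in all 20 libraries. The remaining 4 transporters of the list that were tested (Abcc1, Abcc4, Abcc5 and Abca2) were not called, with log2 fold changes between -0.096 and 0.47 in the 9.

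Other genes, also picked by p in the 9, were higher in most or all of the 9 libraries. Cops7a, a subunit of the COP9 signalosome on chromosome 6, had 207 to 412 CPM in the 9 (median 258) and 100 to 176 in DMSO (median 138). Dus2, which makes dihydrouridine in tRNA, had 27.6 to 56.8 against 10.8 to 21.8, Ddx56, a nucleolar RNA helicase, 145 to 220 against 78.9 to 132, and Emd, the nuclear envelope protein emerin, 152 to 233 against 84.7 to 147. These 4 did not overlap between groups, and their log2 fold changes in the 6 were 1.04 ± 0.15, 1.14 ± 0.18, 0.82 ± 0.12 and 0.94 ± 0.13 (SE, edgeR adjusted p = 0.00014, 0.00033, 0.00025 and 0.00011). Lrpap1, a chaperone of LDL receptor family proteins, and Ntpcr, a nucleoside triphosphatase, also rose in the 6, by 1.29 ± 0.18 and 1.62 ± 0.21 (log2, SE, edgeR adjusted p = 0.00011 and 4e-05). Mcrip1 and Exoc7, an exocyst subunit, overlapped with DMSO and rose in the 6 by 0.89 ± 0.15 and 1.21 ± 0.21 (SE, edgeR adjusted p = 0.00097 and 0.00095).

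A second kind of higher gene was high in some of the 9 and at the DMSO level in others. Gm14165, a processed pseudogene on chromosome 2, had 10.3 to 16.3 CPM in DMSO. It was at 1205 to 1868 CPM in Pac B2, E2, G9, H1, H3 and H4, and at 6.64, 10.4 and 20.1 in Pac A6, Pac C1 and Pac H8. Its counts are uncertain where reads also match its parent gene. The same division held among the 7 other paclitaxel libraries, with 1195 to 2038 CPM in Pac C11, D4 and D10 and 22.9 to 28.9 in the other 4. Myl4, a myosin light chain, spanned 62.6 to 967 CPM in the 9 against 18.8 to 99.6 in DMSO, with Pac H4 and Pac G9 within the DMSO range. Sla2, an adaptor that dampens antigen receptor signaling, had a median of 6.21 CPM in the 9 (0 to 21.9) against 0.576 in DMSO (0 to 3.94), and Limd2 had 29.5 to 119 against 7.72 to 32.6, highest in Pac A6 and Pac G9.

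**Figure D4:**
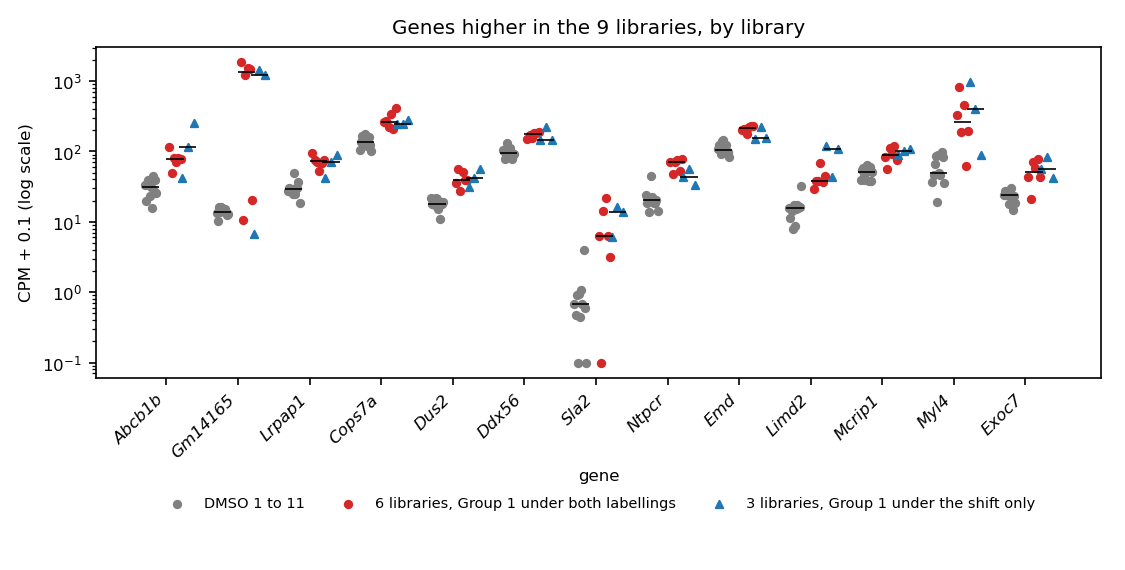
CPM plus 0.1 on a log axis for Abcb1b and the 12 genes higher in the 9 libraries with the smallest p, with the same symbols for the groups. Cops7a, Dus2, Ddx56 and Emd do not overlap between the groups, whereas Gm14165 is at or above 1205 CPM in 6 of the 9 libraries and at most 20.1 in the other 3.

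Interferon-induced genes were raised mostly in a pair of libraries. Ifit3 and Ifit1 encode antiviral proteins of the same family and lie near each other on chromosome 19, and 60 bases upstream of each are shown because both hold the core of the interferon-stimulated response element, with whole matches in capitals (RefSeq, GRCm38.p6, plus strand, chr19:34583368-34583427 and chr19:34640780-34640839). The motif searched was a pair of GAAA copies with any 2 bases between them, which on the other strand reads as a pair of TTTC copies.
Ifit3: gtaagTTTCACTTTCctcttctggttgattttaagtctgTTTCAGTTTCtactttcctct
Ifit1: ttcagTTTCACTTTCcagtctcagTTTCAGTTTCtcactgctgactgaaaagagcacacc
Within 250 bases upstream of the start, on either strand, the motif was found for 2 of the 4 called interferon genes with a window in the table and for 8 of 20 interferon genes matched, and for 3.46% of all 27025 genes. A match is a description of letters and shows no binding.

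Of 25 interferon-induced genes tested, 5 were called higher in the 9 (Ifit3, Ifit2, Oasl1, Ifit1 and Ifi27) and 0 lower, where 1.58% of all genes were higher, and 1, Ifit3, was called in the 6, where 0.836% were. The median log2 fold change of the list was 1.44 in the 9 and 1.12 in the 6, against 0.020 and -0.028 over all genes tested. With DESeq2, 9 were called higher in the 9, as were 280 of all 9333 genes, and the list's median was 0.82. After thinning, when 12 passed the filter, 3 were called higher, as were 100 of all 4814 genes, and the list's median was 0.65. The calls of Ifit1 and Ifi27 in the 9 were each lost in 12 of 20 fits that left out 1 library, among them those without Pac G9 or Pac H1. Ifit3 had 349 CPM in Pac G9, 269 in Pac H1 and 49.9 in Pac C1, and 2.15 to 10.5 in the other 6, while DMSO libraries had 0 to 7.75. In the 6 its log2 fold change was 4.63 ± 1.03 (SE, edgeR adjusted p = 0.0083), and this call was lost in 11 of 17 fits that left out 1 library (Pac C1, Pac H1, or any DMSO library but DMSO 6 and DMSO 11). Oasl1, related to the 2′-5′ oligoadenylate synthetases, had 808 CPM in Pac G9 and 319 in Pac H1, and 3.86 to 22.6 in the other 7, against 0 to 26.6 in DMSO with the highest value in DMSO 11. Ifit1 had 924 CPM in Pac G9, 316 in Pac H1 and 121 in Pac C1, against 0.161 to 53.5 in DMSO. Without Pac H1, the list's median was 0.12 in the 6, with 0 genes called by edgeR and 2 at an unadjusted p under 0.05, and 0.70 in the 9, with 3 called. Without Pac G9, 1 gene of the list was called in the other 8 libraries and the median was 1.12. The number called rose to 9 without Pac A6 or without Pac H4, and to 8 without Pac H3. Without both Pac G9 and Pac H1, 0 were called by the same edgeR test (7 at an unadjusted p under 0.05), and the list's median was 0.21. By library, the median of the list relative to the DMSO mean was 2.72 in Pac G9, 2.62 in Pac H1 and 1.04 in Pac E2, and between -0.11 and 0.54 in the other 6, where DMSO libraries lay between -0.67 and 0.49.

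Antigen presentation genes also varied among the 9. Of 18 tested, H2-DMb1, a chain of the peptide exchange factor of MHC class II, was called higher in the 9, where 1.58% of all genes were, and not in the 6 (log2 fold change 1.92 ± 0.60, SE, edgeR adjusted p = 0.054). H2-DMb1 had 0 to 36.9 CPM in the 9 (median 7.72), highest in Pac E2, against 0 to 8.87 in DMSO (median 2.52), so the groups overlapped, and the call was lost in 14 of 20 fits that left out 1 library, among them those without Pac B2, E2, G9, H1, H3 or H8. By library, the list's median was 1.77 in Pac G9, 1.23 in Pac H1, 1.08 in Pac E2 and 1.02 in Pac H3, and between -0.48 and 0.34 in the other 5, against -0.89 to 0.82 in DMSO.

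**Figure D5:**
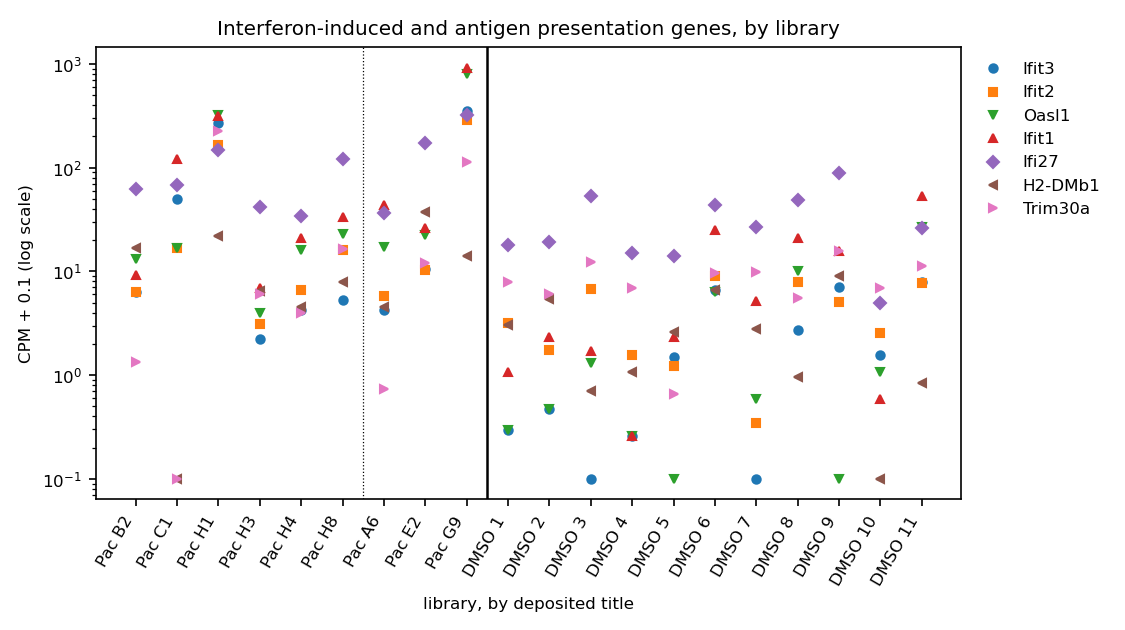
CPM plus 0.1 on a log axis of 7 interferon-induced and antigen presentation genes in each library, with the 6 libraries of Group 1 under both labellings left of the dotted line, the 3 under the shift only between the lines, and DMSO right of the solid line. Ifit1 is highest in Pac G9 and Pac H1, at 924 and 316 CPM, and H2-DMb1 in Pac E2, at 36.9.

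Of 12 p53 targets tested, all had a log2 fold change above 0 in the 9 (median 0.41), as did 4853 of all 9333 genes, while the median in the 6 was -0.03. By library, the list's median was 2.26 in Pac G9, 0.96 in Pac A6 and between -0.40 and 0.51 in the other 7, and 1.04 in DMSO 11 and -0.28 to 0.44 in the other 10 DMSO libraries. Pmaip1, which encodes the pro-death protein NOXA and was the 1 called gene of the list, where 1.58% of all genes were called higher, had 497 CPM in Pac G9 and 7.29 to 66.1 in the other 8 libraries, against 1.96 to 23.7 in DMSO. It was called higher in the 9, not called without Pac G9, and not called in the 6 (log2 fold change 1.53 ± 0.58, SE, edgeR adjusted p = 0.12). Bax, a pore-forming member of the family, had 140 to 292 CPM in the 9 (median 173) and 113 to 196 in DMSO (median 147) and was not called. Trp53 had 179 to 368 CPM in the 9 against 177 to 312 in DMSO, and Myc 781 to 1082 against 660 to 1123. Neither was called. The pro-survival genes Mcl1 and Bcl2 were not called either, with log2 fold changes of 0.018 and 0.48 in the 9.

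Genes of the drug's target were also not called. Of 8 α- and β-tubulins tested, 0 were called in the 9 or in the 6 by edgeR (4 and 1 at an unadjusted p under 0.05, where 22.9% and 20.6% of all genes lay, and 1 in the 9 by DESeq2), with log2 fold changes in the 9 between -0.88 (Tuba1a) and 0.42 (Tubb2b). Tubb3, the neuronal β-tubulin isotype, had too few counts for the test, 73 in total in the 9 libraries and 72 in DMSO. Of 24 microtubule regulators 0 were called by edgeR or, in the 9, by DESeq2 (1 at an unadjusted p under 0.05 in the 9 and 2 in the 6), and Kif11 was the 1 gene called of 20 in the spindle checkpoint list, where 2.27% of all genes were lower in the 9 and 1.22% in the 6. Of 21 glutathione and NRF2-type genes tested, Gsto1 was called lower in the 9 and Gstm1 higher, where 2.27% and 1.58% of all genes were. Gstm1, a mu-class glutathione transferase, had 63.4 CPM in Pac G9 and 1.54 to 29 in the other 8 libraries against 0.739 to 9.86 in DMSO. It was not called in the 6 (log2 fold change 2.03 ± 0.62, SE, edgeR adjusted p = 0.05). Of 24 B cell identity and receptor signaling genes tested, 1 was called lower in the 9 by edgeR and 0 higher, where 2.27% of all genes were lower. This was Cd38, an ectoenzyme of the B cell surface (89.2 to 215 CPM against 205 to 326 in DMSO). Cd38 was not called in the 6 (-0.49 ± 0.16, edgeR adjusted p = 0.061). When 1 of 20 libraries was left out, the call in the 9 was lost in 12 fits for Cd38, among them those without Pac C1, G9, H1 or H3, and in 9 for Gstm1, among them those without Pac G9 or Pac H1. By edgeR, 0 members were called in either comparison among 15 NF-kB and immediate early genes, 6 immunoglobulin genes, 10 genes of the MYC network, 17 cytokine and chemokine receptors, 13 calcium channel and calmodulin kinase genes, 18 genes of glycolysis and the TCA cycle, 16 of amino acid stress and 15 of G1 control. At an unadjusted p under 0.05, which 22.9% of all genes reached in the 9 and 20.6% in the 6, these lists held 4, 3, 0, 3, 1, 1, 1 and 4 genes in the 9 and 4, 3, 1, 3, 0, 0, 2 and 3 in the 6, and DESeq2 called 2, 1, 0, 1, 0, 0, 0 and 2 of them in the 9, where it called 639 of all 9333 genes.

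Some genes divided the 9 libraries without separating them from DMSO. Smoc1, a secreted calcium-binding protein of the matrix, was at 121, 119 and 137 CPM in Pac H3, H4 and H8, at 68.8 in Pac E2 and 30.5 in Pac H1, and at 0 to 1.49 in Pac A6, B2, C1 and G9, against 0 to 23.7 in DMSO. Krt10, a keratin, was between 24 and 33.4 CPM in the same 5 libraries and at 0 to 1.24 in the same 4, but DMSO libraries spanned 0.161 to 45.3. Iglc1, an immunoglobulin λ constant region, had 8190 CPM in Pac H3, 228 in Pac H8 and 1.90 to 42.1 in the other 7, against 3.11 to 901 in DMSO. Trim30a, an interferon-induced gene, had 228 CPM in Pac H1 and 114 in Pac G9, and H2-DMa, the partner of H2-DMb1, was highest in Pac E2 at 137. None of these 5 was called in the 9 by edgeR.

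The 9 libraries were then set beside the 7 other paclitaxel libraries, a contrast that also depends on the shift and is given as values. Of 10232 genes fitted, 39 were higher (0.381%) and 24 lower (0.235%) in the 9, 0.616% in all. Bax had 140 to 292 CPM in the 9 and 43.3 to 115 in the 7, a log2 difference of 1.24 ± 0.19 (SE). G6pdx, the entry enzyme of the pentose phosphate pathway, had 69.3 to 162 CPM in the 9 against 27.6 to 72.9 in the 7 and 92.9 to 202 in DMSO, a log2 difference of the 9 from the 7 of 1.29 ± 0.19. For both genes, the 9 overlapped with DMSO. Gstm1 was at 31.2 to 78.8 CPM in the 7. Tubb3 was lower in the 9 than in the 7 by 3.56 ± 0.61 on the log2 scale. It had failed the filter of the 9 with DMSO and entered this fit only with the 7 added, so its direction may follow from the filter.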

How the data were processed

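3′-end digital gene expression libraries of 30 lines were compared, 1 library per line, and the lines, grown in separate wells from 1 parental culture, served as replicates. The authors pooled barcoded cDNA in subpools, aligned single-end reads to GRCm38 (mm10) with STAR 2.5.1b, per the submitters' processing notes, and deposited whole-number counts per gene without normalization. Which library was in which subpool, and whether molecular identifiers were collapsed, is not given in the sources used here, so this batch was not modelled and could not be told apart from the groups. Symbols were found for 55141 of 55401 identifiers in gencode M21, where the study names a later release. The members and gene lists were chosen with earlier results of these data known.

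For the count model (edgeR 4.0.16, under R 4.3.3), genes passing filterByExpr were scaled by TMM factors and tested with quasi-likelihood F statistics, and p was adjusted by Benjamini-Hochberg over all tested genes (threshold 0.01). The filter for all comparisons with DMSO used the 9 and DMSO 1 to 11, and the 6 and the 3 were separate groups of 1 fit with DMSO. The SE is the absolute log2 fold change divided by the square root of F. CPM are TMM-scaled counts per 1e6. Levels were compared between libraries within a gene, since 3′-end counts do not scale with length. Chromosome medians used log2 CPM with a prior count of 2, and exact two-sided permutation tests of the group means in Python 3.11.15, adjusted over 20 chromosomes. Named genes were the 12 higher and 12 lower with the smallest p in the 9, up to 5 called members of each list by p, Abcb1b, Abcb1a, Tubb3, Gstm1, Bax, G6pdx, Myc, Trp53 and Cdkn2a, and the 6 of widest spread among the 9; other genes named were chosen after their values were seen. Alternatives were RLE factors, DESeq2 1.42.0, edgeR's likelihood ratio test, other filters, log10 total counts as covariate, thinning to 480919 counts, the deposited titles and leaving out libraries. The code was tested on simulated data. Within the 9 and within DMSO 1 to 11, no 2 libraries were copies, the closest pair (DMSO 6 and DMSO 9) differing by a chi-square of 5.68 per gene. Other pairs of libraries were not compared in this way. Counting intervals cover counting error only.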

Additional observations from a re-analysis of the deposited data

Results flagged for a closer look

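Among the 9 libraries, 19 of 72 sets of 9 values (26.4%), 1 set per named gene or chromosome, held a value far from the others. Chance flags about 1 in 20 sets, but this rate does not apply here, since 6 of the genes were chosen for their spread among the 9, others lost their call without Pac G9, and CPM are skewed. Pac G9 held 7 of them. It was the highest in Abcb1b (252 CPM, next 117), Pmaip1 (497, next 66.1), Oasl1 (808, next 319), Ifit1 (924, next 316), Ifi27 (323, next 172) and Gstm1 (63.4, next 29), and the lowest in Ndufb8 (108, next 190). In Pac C1, Klhl22, Lipo3 and Akr1e1 each stood at 2.08 CPM, which is 1 count in this shallow library, and its medians on chromosomes 11 and 16 were -0.16 and -0.14. In Pac B2, AW209491 stood at 1.24 CPM and Acyp2 at 0.745. In Pac E2, H2-DMa was at 137 CPM, and the medians of chromosomes 1 and 12 were 0.29 and 0.40. Iglc1 was at 8190 CPM in Pac H3, and Trim30a at 228 CPM in Pac H1.

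Of the named genes, 7 passed the threshold in the fit of the 9 against the 7 other paclitaxel libraries, as 0.616% of all genes did. The shift that chose the 9 also rests on this contrast, so these are values and no test. The log2 difference of the 9 from the 7 was -4.93 for Klhl22, -4.67 for Acyp2, -5.24 for Zc2hc1a, -2.85 for Kantr and -6.17 for Akr1e1, and it was 1.24 for Bax and 1.29 for G6pdx.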

How the results depend on the processing

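The 359 genes called in the 9 became 639 with DESeq2, 586 with edgeR's likelihood ratio test, 225 after thinning to 480919 counts, 229 with the 7 other paclitaxel libraries in the fit and 59 when Group 1 was read from the deposited titles against DMSO 1 to 12. Leaving out the genes of chromosome 19, chosen after seeing the data, gave 235, and leaving out Pac A6, Pac G9 and DMSO 11, also chosen then, gave 498. The 192 genes called in the 6 became 415, 383 and 111 with DESeq2, the likelihood ratio test and thinning, and 115 without chromosome 19. The 3 against the 6 gave 7 with DESeq2 and 11 with the likelihood ratio test instead of 0, and the 63 genes of the 9 against the 7 became 208, 192 and 38 with DESeq2, the likelihood ratio test and thinning. Leaving out 1 library gave 263 to 431 calls in the 9 and 125 to 230 in the 6, with 125 without Pac H1, 126 without Pac H3 and 125 without Pac H8. Chromosome medians under an adjusted p of 0.05 numbered 2, and 5 with a prior count of 0.5 and 1 with RLE factors. The chromosome 19 difference stayed between -0.61 and -0.53 in these alternatives and without Pac C1. Of 52 named genes, 43 were called in the 9, and of these 27 lost the call with the deposited titles, 13 in the 6, and 0 with DESeq2, which gave Crlf2 no adjusted p, or with RLE factors. No named gene changed sign in these 4 alternatives or after thinning, where 34 passed the filter. When 1 library was left out, Iglc1 and Krt10 changed sign in the 9 (-1.22 to 5.58 and -0.09 to 0.44) and Iglc1, Trim30a and Trp53 in the 6 (-0.64 to 6.16, -0.50 to 2.67 and -0.03 to 0.17), none of which was called in the main comparisons. The causes were not tested. No paired analysis was possible because the paclitaxel titles carry well names and share no replicate numbers with DMSO. Depth limits genes with few counts most in Pac C1.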
